A study of Mus musculus with 23 samples.

Results

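The genes described here are 10 genes of fast skeletal muscle fibres whose signal was high on some arrays of a mouse lung series: Acta1, Ckm, Tnnc2, Tnnt3, Tnni2, Myh4, Myh2, Mylpf, Pvalb and Atp2a1. They were chosen by those high values, so their levels by array are a description and support no test. All 10 genes had a probe set annotated with a single symbol, 14 probe sets of 45037 in all, and the squamous epithelial keratin gene Krt4 (2 probe sets) was read beside them. Where a gene had several probe sets, the one with the highest mean over the arrays is given unless stated.

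The arrays measured total RNA, extracted from the entire right lung, in mutant mice labelled CF-/- (CF) and in CF+/+ mice (controls), on 2 inbred backgrounds, BALB/c (BALB) and C57BL/6 (B6). There were 8 groups by strain, sex and genotype with 3 arrays each, except B6 CF males with 2, or 23 in all. No age, allele name or treatment is in the labels used here. Nor do they tell if arrays within a group are different mice, and the p-values below reflect only array-to-array spread, which may be technical. Values are log2 signals, array medians lay between 4.56 and 4.64, and the number of arrays limits the precision. The lung markers Sftpc, of alveolar type 2 cells, and Scgb1a1, of club cells, read 13.55 to 13.75 and 13.57 to 13.75 over all 23 arrays. Both lie near the highest value of all, 13.82, so their narrow ranges cannot show that lung content was equal.

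Skeletal muscle contracts when calcium binds troponin on thin filaments of actin, which frees them to be pulled by the myosin heavy chains of the thick filaments. Fast fibres use their own versions of these proteins, a fast calcium pump that refills the sarcoplasmic reticulum, creatine kinase to restore ATP, and, in mice, the calcium buffer parvalbumin. The lung itself has smooth muscle, and heart-type muscle in the sleeves of the pulmonary veins, but is not known for skeletal muscle fibres. In mice such fibres lie in the diaphragm, the chest wall and the outer wall of the oesophagus, and the oesophagus is lined by squamous epithelium that makes the keratin pair Krt4 and Krt13.

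The upstream sequences of Acta1, Myh4, Myh8 and Myh2 are shown because Acta1 and Myh8 were high on all of the 5 arrays described below, Myh4 on 2 of them, and Myh2, a neighbour of Myh4 and Myh8 in the myosin heavy chain cluster, on none. Each is the 250 bases before the annotated start, 5′ to 3′ along the gene, from RefSeq on build GRCm38.p6. Acta1 lies at chr8:123894776-123895025, minus strand, Myh4 at chr11:67237562-67237811, plus strand, Myh8 at chr11:67276874-67277123, plus strand, and Myh2 at chr11:67170777-67171026, plus strand. Capitals mark matches, on either strand, to CANNTG (the E-box bound by MyoD family factors), to the CArG box (bound by serum response factor) and to the MEF2 site, and none of the marked matches overlap.
Acta1: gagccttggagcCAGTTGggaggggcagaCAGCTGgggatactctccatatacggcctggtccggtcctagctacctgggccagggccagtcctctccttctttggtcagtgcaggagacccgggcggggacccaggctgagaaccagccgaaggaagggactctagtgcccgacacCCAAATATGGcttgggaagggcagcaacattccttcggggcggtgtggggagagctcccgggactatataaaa
Myh4: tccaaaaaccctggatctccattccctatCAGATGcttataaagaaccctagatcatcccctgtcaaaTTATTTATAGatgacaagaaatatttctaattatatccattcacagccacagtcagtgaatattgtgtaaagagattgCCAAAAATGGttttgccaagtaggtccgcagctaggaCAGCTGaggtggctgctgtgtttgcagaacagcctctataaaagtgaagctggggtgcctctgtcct
Myh8: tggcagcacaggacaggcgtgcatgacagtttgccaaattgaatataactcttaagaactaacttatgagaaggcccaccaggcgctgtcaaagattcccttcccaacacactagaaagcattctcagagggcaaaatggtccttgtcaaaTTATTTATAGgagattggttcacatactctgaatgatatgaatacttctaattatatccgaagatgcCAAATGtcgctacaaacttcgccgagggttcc
Myh2: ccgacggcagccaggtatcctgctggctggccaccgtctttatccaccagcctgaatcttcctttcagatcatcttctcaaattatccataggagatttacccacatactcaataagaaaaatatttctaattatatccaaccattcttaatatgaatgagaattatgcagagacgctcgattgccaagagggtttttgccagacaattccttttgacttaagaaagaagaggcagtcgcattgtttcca
The Acta1 window held a CArG box 73 bases before the start and 2 CANNTG matches. The Myh4 window held a CArG box at 104 bases, a MEF2 site at 182 bases and 2 CANNTG matches, and the Myh8 window a MEF2 site at 99 bases and 1 CANNTG match. No match lay in the Myh2 window, which says only that these letters are not in it. Of the 10 genes, 8 had such a window in the table used, and by the first listed start 6 of the 8 held CANNTG, 2 a CArG box and 2 a MEF2 site. Of all 32851 promoter windows of this length 66.2% held CANNTG, 1.47% a CArG box and 1.69% a MEF2 site. A match is a description and was not tied to the signals below.

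The muscle genes were high on 5 of the 23 arrays. These were all 3 arrays of BALB CF females, 1 of 3 arrays of B6 control males (replicate 3) and 1 of 3 arrays of B6 control females (replicate 1). High means at least 1 log2 unit, a doubling of signal, above the gene's own median over the 23 arrays. The number of the 10 genes that were high was 9 on BALB CF female 3, 8 on B6 control male 3, 7 each on BALB CF females 1 and 2, and 5 on B6 control female 1. On the other 18 arrays it was 0. Among all 18193 genes with a single-symbol probe set, 3.92% were high on at least 1 array, and the share high on a single array was 1.08% on BALB CF female 3, 1.15% on B6 control male 3, 0.341% and 0.39% on BALB CF females 1 and 2, and 0.72% on B6 control female 1. Averaged over the 10 genes, the distance from the gene's median (the muscle score) was 3.66 on BALB CF female 3, 3.20 on B6 control male 3, 2.26 and 1.80 on BALB CF females 2 and 1, and 1.08 on B6 control female 1. The 18 other arrays lay between -0.27 and 0.16.

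**Figure D1:**
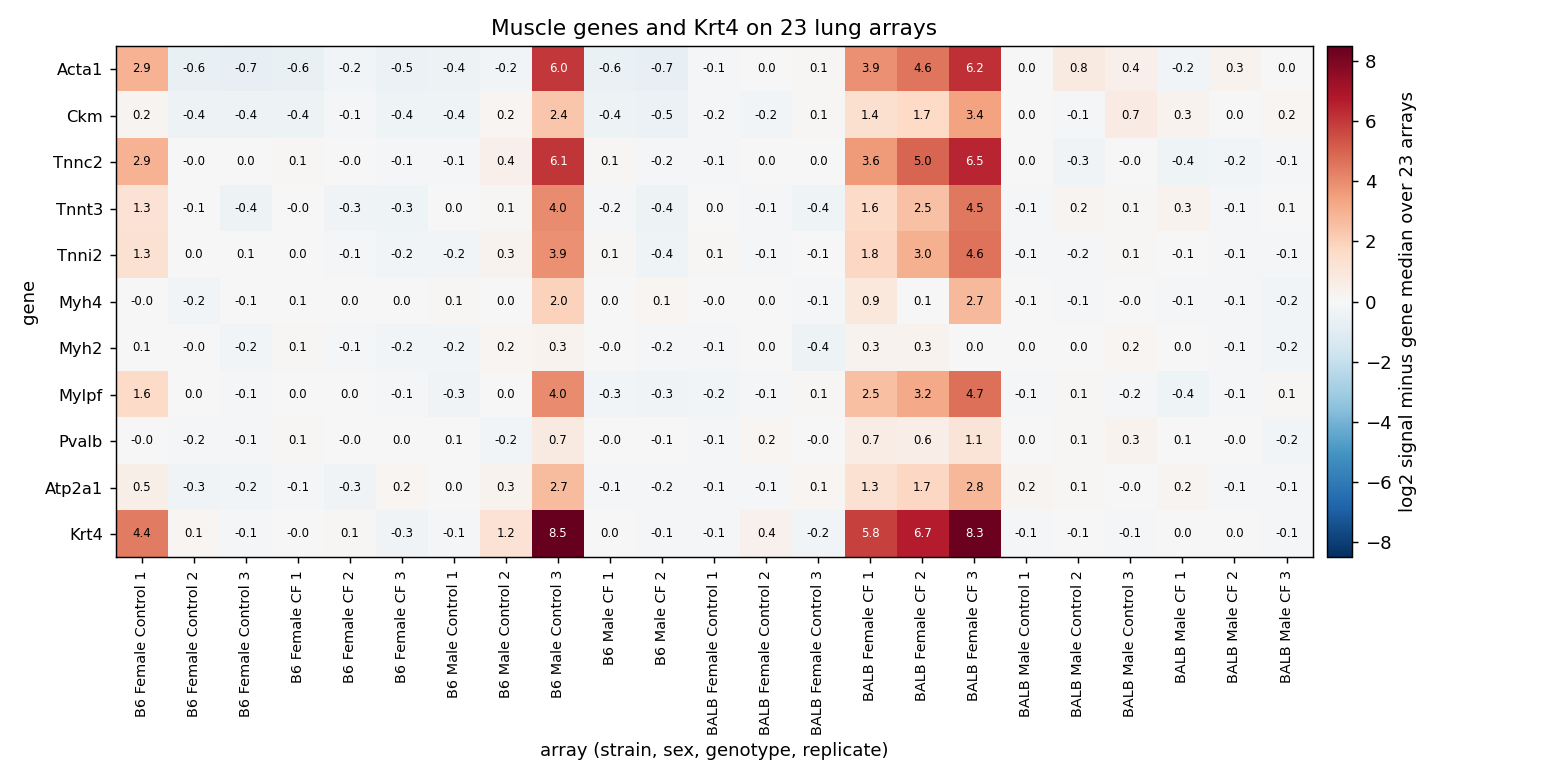
Log2 signal of the 10 muscle genes and Krt4 on each of the 23 arrays (columns, by strain, sex, genotype and replicate), minus that gene's median; red is above and blue below the median. The 5 arrays with high muscle genes stand out as columns, Myh2 stays near its median on all arrays, and Krt4 is high on the same 5 arrays and, by 1.24, on B6 control male 2.

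Acta1, the skeletal actin of the thin filament, had the widest range of the 10, 6.95 log2 units. In B6 it read 8.35, 4.80 and 4.70 in control females, 4.79, 5.17 and 4.93 in CF females, 5.0, 5.18 and 11.40 in control males, and 4.86 and 4.73 in CF males, for replicates 1 to 3 in turn. In BALB it read 5.30, 5.41 and 5.51 in control females, 9.28, 9.97 and 11.65 in CF females, 5.44, 6.17 and 5.84 in control males, and 5.16, 5.68 and 5.44 in CF males. The 5 high arrays lay at 8.35 or above and all others at 6.17 or below. The BALB CF females averaged 10.30 ± 1.22 and their controls 5.41 ± 0.10 (SD, n = 3 each). As Acta1 was chosen for its high values on some arrays, this gap is a description. The B6 control males averaged 7.19 ± 3.65 (SD, n = 3), a spread set by replicate 3 alone.

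The 3 troponin subunits of fast fibres moved alike. Tnnc2, the calcium-binding subunit, read 6.36 on B6 control female 1, 7.07, 8.37 and 9.87 on BALB CF females 1, 2 and 3, and 9.50 on B6 control male 3, against 3.05 to 3.85 on the other 18 arrays. Tnni2, the inhibitory subunit, read 5.69, then 6.19, 7.40 and 8.99, then 8.28 on the same arrays in the same order, against 4.04 to 4.72 elsewhere. All 5 arrays were thus clear of the rest for both genes, a description, since high values of the muscle genes set these arrays apart. Tnnt3, the subunit that binds tropomyosin, read 5.29, then 5.66, 6.52 and 8.48, then 8.03, against 3.61 to 4.32. In BALB CF females the means were 8.44 ± 1.40 for Tnnc2, 7.52 ± 1.41 for Tnni2 and 6.88 ± 1.45 for Tnnt3 (SD, n = 3), and replicate 3 was the highest of the 3 arrays for each gene.

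Among the motor genes, the light chain Mylpf, the fast regulatory light chain of myosin, read 5.91 on B6 control female 1, 6.82, 7.52 and 8.99 on BALB CF females 1 to 3 and 8.31 on B6 control male 3, against 3.89 to 4.37 on the others. Myh4, the myosin heavy chain of the fastest (type 2B) fibres, was high on 2 arrays only, at 6.63 on BALB CF female 3 and 5.86 on B6 control male 3. It read 4.81 on BALB CF female 1, less than 1 unit above its median. On BALB CF female 2, where Acta1 and Tnnc2 were higher than on BALB CF female 1, Myh4 read 3.95, inside the 3.67 to 4.05 of the 18 arrays, and on B6 control female 1 it read 3.89. Myh2, the heavy chain of type 2A fibres, was high on no array and stayed between 2.85 and 3.59, with 3.32 to 3.59 on the 5 arrays and 2.85 to 3.48 on the others.

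Of the genes of energy and calcium handling, Ckm and Atp2a1 were high on 4 arrays each and Pvalb on 1. Ckm, the muscle creatine kinase, read 7.86, 8.20 and 9.92 on BALB CF females 1 to 3 and 8.86 on B6 control male 3. On B6 control female 1 it read 6.74, within the 5.97 to 7.20 of the other 18 arrays. Atp2a1, the fast calcium pump SERCA1, read 6.00, 6.43 and 7.55 in BALB CF females, 7.41 on B6 control male 3 and 5.21 on B6 control female 1, against 4.38 to 4.98. Pvalb, parvalbumin, reached 5.15 on BALB CF female 3, its only high array, and read 4.72 and 4.61 on BALB CF females 1 and 2, 4.80 on B6 control male 3 and 4.03 on B6 control female 1, against 3.81 to 4.35. Of the 10 genes, 5 (Acta1, Tnnc2, Tnni2, Tnnt3 and Mylpf) were high on all 5 arrays, and 1 (Myh2) on none. The lowest signal just inside the cut-off for a high call was that of Pvalb on BALB CF female 3, 1.09 above its median, and the nearest below it was that of Myh4 on BALB CF female 1, 0.91 above.

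The order of the 5 arrays was nearly the same from gene to gene. In 7 of the 10 genes signal increased from B6 control female 1 through BALB CF female 1, BALB CF female 2 and B6 control male 3 to BALB CF female 3. Myh4 and Pvalb had BALB CF females 1 and 2 the other way round, and Myh2 had another order within its narrow range. The order places B6 control male 3, of the other strain, sex and genotype, between BALB CF females 2 and 3.

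Probe sets of the same gene did not all show the pattern. Of the 3 for Tnni2, the middle one by mean signal read 5.06 to 7.36 on the 5 arrays against 4.20 to 4.64 elsewhere, like the brightest one, while the dimmest read 3.12 to 3.50 against 2.97 to 3.57. For Ckm, the dimmer of its 2 probe sets read 4.28 to 4.65 on the 5 arrays and 4.17 to 4.53 on the others, so it did not follow the brighter one. The second Myh4 probe set was high on BALB CF female 3 alone, at 4.90. The heavy chain genes are close in sequence, and how far each myosin probe set reads its neighbours was not tested.

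**Figure D2:**
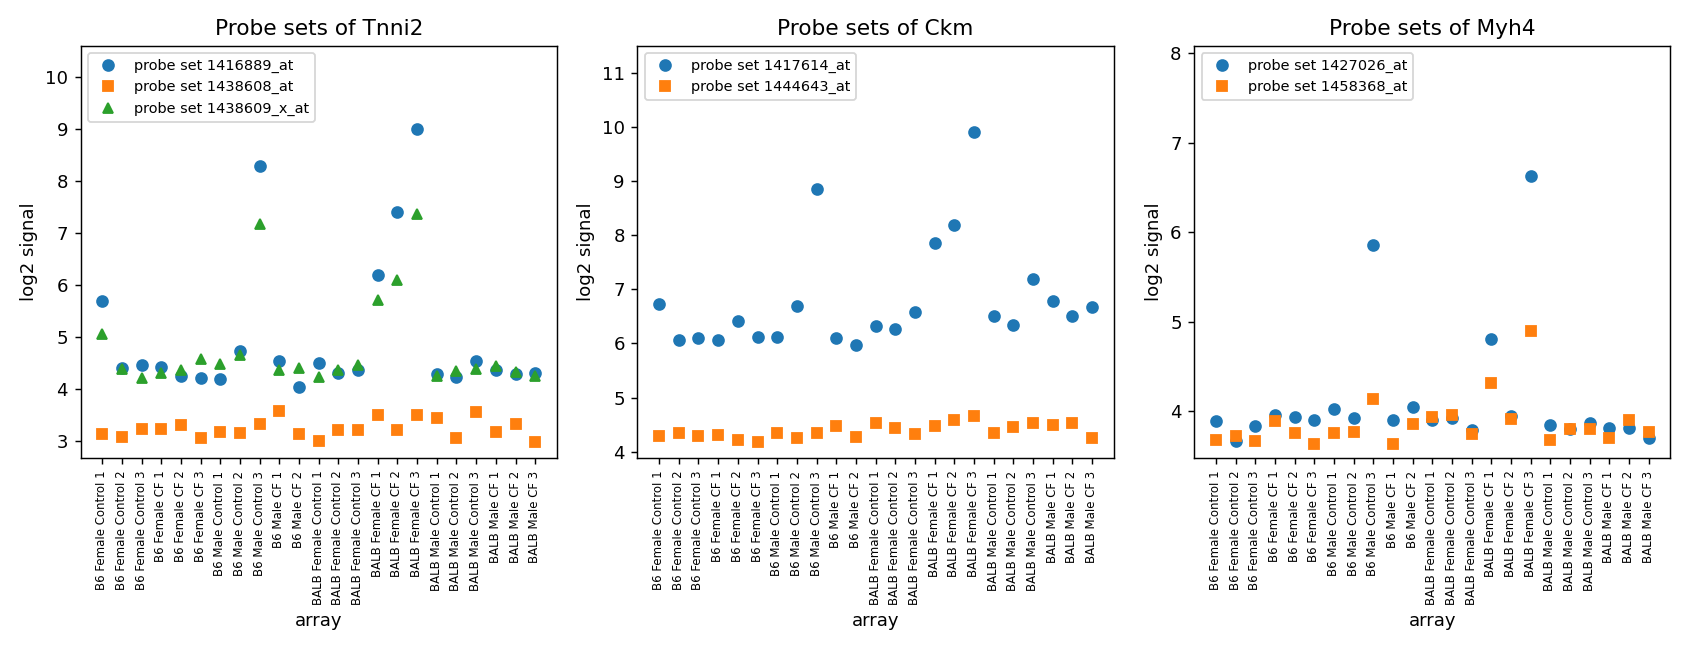
Log2 signal (vertical axis) of every probe set of Tnni2, Ckm and Myh4 on the 23 arrays (horizontal axis), 1 point per array and probe set. For Tnni2 2 of 3 probe sets are raised on the 5 arrays; the dimmest of Tnni2 and the dimmer of Ckm lie within 2.97 to 3.57 and 4.17 to 4.65 on all arrays.

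Krt4, a keratin of the upper layers of squamous epithelium in the oesophagus and mouth, was high on the same 5 arrays. It read 8.55 on B6 control female 1, 9.94, 10.82 and 12.46 on BALB CF females 1 to 3 and 12.60 on B6 control male 3, with 3.83 to 5.38 on the other 18. Its rise above the median was 4.41, 5.81, 6.69, 8.32 and 8.47 on these arrays, and that of Acta1 was 2.94, 3.87, 4.56, 6.24 and 5.99. The order of the 5 arrays matched that of the muscle score but for the highest pair, which changed places. A sixth array, B6 control male 2, also had high Krt4 (5.38). On it no muscle gene was high, and its muscle score was 0.11, within the -0.27 to 0.16 of the 18 arrays. Tnnc2 (3.85), Tnni2 (4.72) and Atp2a1 (4.98) had their highest values among the 18 arrays there, and none of the other muscle genes did. Acta1 (5.18) was at its median of the 18 arrays, and Pvalb (3.81) had its lowest value. The second Krt4 probe set gave the same 6 arrays, with 8.32 to 12.29 on the 5 and 5.08 on B6 control male 2.

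Because the arrays fall into separate clusters, p-values for Krt4 and the muscle genes were computed only within 1 of them. The r of Krt4 with the muscle score over all arrays, given further below, is a description. The plan held a description of this relation and no test. Within the 18 arrays where no muscle gene was high, the muscle score and Krt4 had a Pearson r of 0.38 (permutation p = 0.163, adjusted p = 0.49). Their Spearman rho was 0.11 (permutation p = 0.674, adjusted p = 0.809), and r was 0.53 over 16 arrays without the 2 farthest in score. B6 control male 2, with the highest Krt4 of the 18 (5.38), was not among those 2, and r without it was not computed. For Tnnc2 and Krt4, r was 0.64 (permutation p = 0.0457, adjusted p = 0.274) and rho 0.23 (permutation p = 0.353, adjusted p = 0.706), and r fell to 0.15 without 2 arrays, so that value rests on them. For Acta1 and Krt4, r was -0.04 (permutation p = 0.939, adjusted p = 0.939) and rho -0.17 (permutation p = 0.504, adjusted p = 0.756), with r at 0.05 without 2 arrays. These 3 pairs were the family computed, two-sided, with the 6 p-values adjusted together. None of the 3 passed after adjustment, which does not decide whether a relation exists below the high range. The 18 arrays were kept because no muscle gene was high on them, which narrows the range of the muscle values. The permutations also took no account of the 8 groups, so nothing is read from these p-values.

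**Figure D3:**
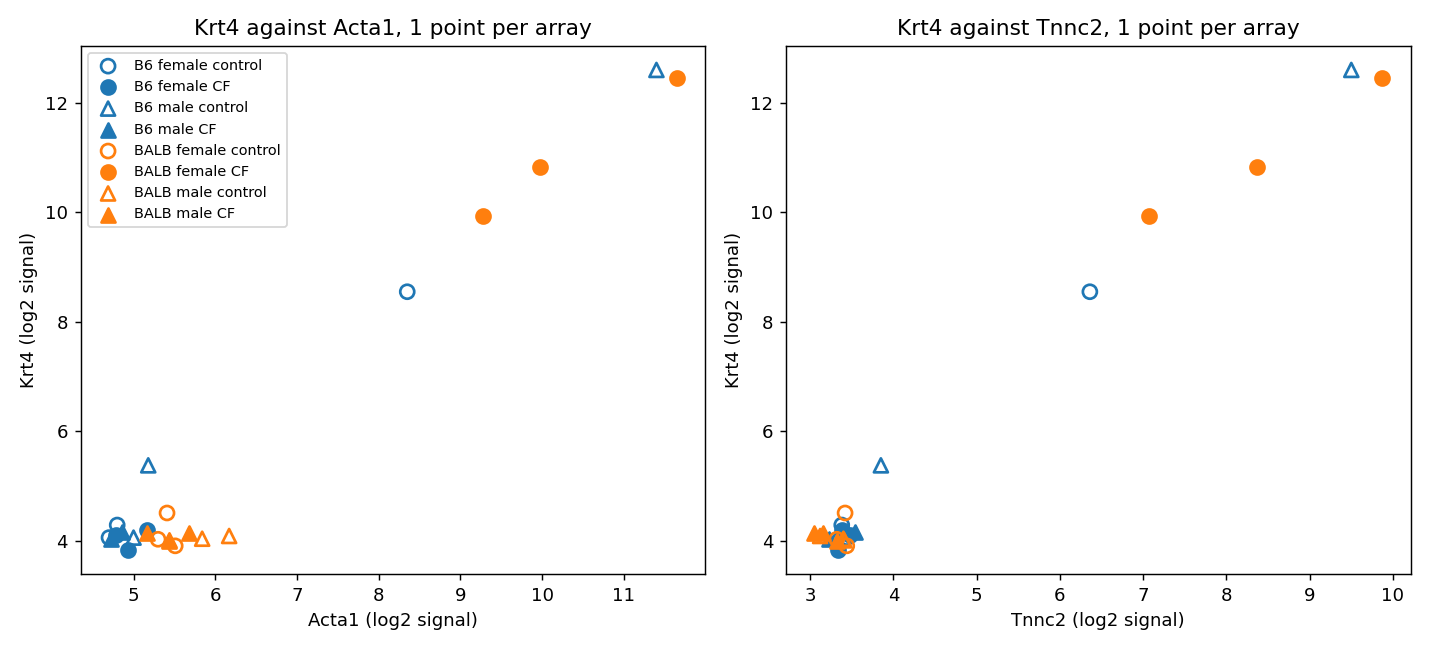
Krt4 (vertical axis, log2 signal) against Acta1 (left) and Tnnc2 (right), 1 point per array; colour is strain, shape is sex and filled points are CF. The 5 arrays with Acta1 at 8.35 or above have Krt4 at 8.55 or above, and B6 control male 2 lies off the main cluster at 5.38.

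The genes most like the muscle score over the 23 arrays, by Pearson r over 18193 genes less the 10, included genes of the squamous list and the muscle gene Myh8. This r is a description that rests on the 5 high arrays, which stand apart from the other 18. The closest 10 were Lce3f (0.996), Lce3a (0.995) and Lce3c (0.994) of the late cornified envelope, Crct1 (0.993), the metallothionein Mt4 (0.993), Sprr3 (0.993) of the cornified envelope, Krtdap (0.992), the muscle gene Myh8 (0.99), Serpinb12 (0.989) and Krt13 (0.987), the partner keratin of Krt4. Of these 10, Sprr3, Krtdap and Krt13 are in the squamous list. Krt4 itself ranked 14, at 0.982. With the mean of each of the 8 groups taken off, 9 of these 10 were again among the closest 10 (Asprv1 stood in place of Serpinb12), and the 10 then had r from 0.98 to 0.993. In all, 16 genes (0.0879% of 18193) were high on each of the 5 arrays: 5 of the muscle genes, Myh8, and Krt4, Krt13, Krtdap, Sprr3, Crct1, Lce3a, Lce3f, Mt4, Serpinb12 and Gm94. Of these, Krt4 was the one also high on another array, and 0.0824% of all genes were high on the 5 arrays and no other. Krt13 read 7.08, 8.33, 9.25, 11.02 and 11.35 on B6 control female 1, BALB CF females 1, 2 and 3 and B6 control male 3, against 3.32 to 4.46 elsewhere.

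Other muscle genes were read from lists set beside the 10, to show which kinds of fibre the signal resembled. The share of all genes high on an array is given for the 5 arrays only, so counts on other arrays are a description. Of 11 other measured fast fibre genes, 9 were high on BALB CF female 3, 6 on B6 control male 3, 3 on BALB CF female 2 and 0 on BALB CF female 1 and B6 control female 1. Mybpc2, the fast myosin-binding protein C, read 6.99 on BALB CF female 3 and 5.46 on B6 control male 3 against 3.56 to 4.24 on the 18 arrays, and Actn3, the fast fibre alpha-actinin, read 6.97 and 6.90 against 3.79 to 4.25. Myl1, the fast essential light chain, read 7.70 and 6.96, but up to 6.12 on the 18 arrays. Myh1, the heavy chain of type 2X fibres, stayed between 3.00 and 3.65 on all 23 arrays. On BALB control male 3, which is not among the 5, 2 of the 11 were also high, Myl1 and Gpd1, an enzyme that fat cells make too.

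Of 38 fibre genes not tied to a fibre type, 10 were high on BALB CF female 3, 6 on B6 control male 3, 4 on BALB CF female 2 and 0 on BALB CF female 1 and B6 control female 1. The list was not confined to these arrays: 5 of its genes were high on B6 control male 2 and 2 on BALB control male 3, and 7 were high on some array outside the 5. No share of all genes is given beside the counts outside the 5. Myot, a protein of the Z-disc, read 6.04, 5.39 and 3.89 on the first 3 of these arrays against 2.30 to 2.65 on the 18, Neb, the ruler protein of the thin filament, read 5.0, 5.12 and 3.74 against 2.13 to 2.46, and Klhl41 read 6.53, 5.51 and 4.73 against 3.06 to 3.52. Ttn, titin, was high on B6 control male 3 (8.01) and BALB CF female 3 (7.98). It was highest on B6 control male 2 (8.12), where 3 of 14 cardiac genes were also high. Of 12 slow fibre genes 1 was high on any array: Myl3, the slow and ventricular light chain, was high on BALB CF females 2 and 3 (7.10 and 8.09) and B6 control male 3 (7.54) and read 6.65 on BALB CF female 1, against 5.47 to 6.28 on the 18 arrays. The slow troponins Tnni1 (3.91 to 4.61) and Tnnt1 (4.41 to 4.96) were high on none. Myh7, the slow and cardiac heavy chain, had the widest range of the slow list but did not follow the 5 arrays: it was higher in BALB than in B6 controls by 2.41 (SE 0.08, adjusted p = 2.2e-15 by limma), and read 8.25, 8.53 and 8.48 in BALB CF females and 5.68 on B6 control male 3.

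Of 16 genes of developing muscle and satellite cells, 1 was high on any array. Myh8, the perinatal myosin heavy chain, read 4.25 on B6 control female 1, 6.08, 7.39 and 8.92 on BALB CF females 1 to 3 and 8.06 on B6 control male 3, against 2.73 to 3.14 on the others. All 5 arrays were clear of the rest, in the order of the muscle score, which was not so for the adult heavy chain gene Myh4. The embryonic heavy chain Myh3 (3.17 to 3.82) and the muscle transcription factors Myod1 (3.51 to 4.04) and Myog (3.35 to 4.18) were high on none. Of 14 cardiac genes 0 were high on the 5 arrays and 4 on other arrays, and the mean distance of the list from its medians was -0.75 to 0.13 on the 5 arrays and -0.42 to 0.75 on the 18. Smooth muscle genes (11 measured) were high on none of the 5, with a list mean of -0.23 to 0.15 against -0.27 to 0.48.

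**Figure D4:**
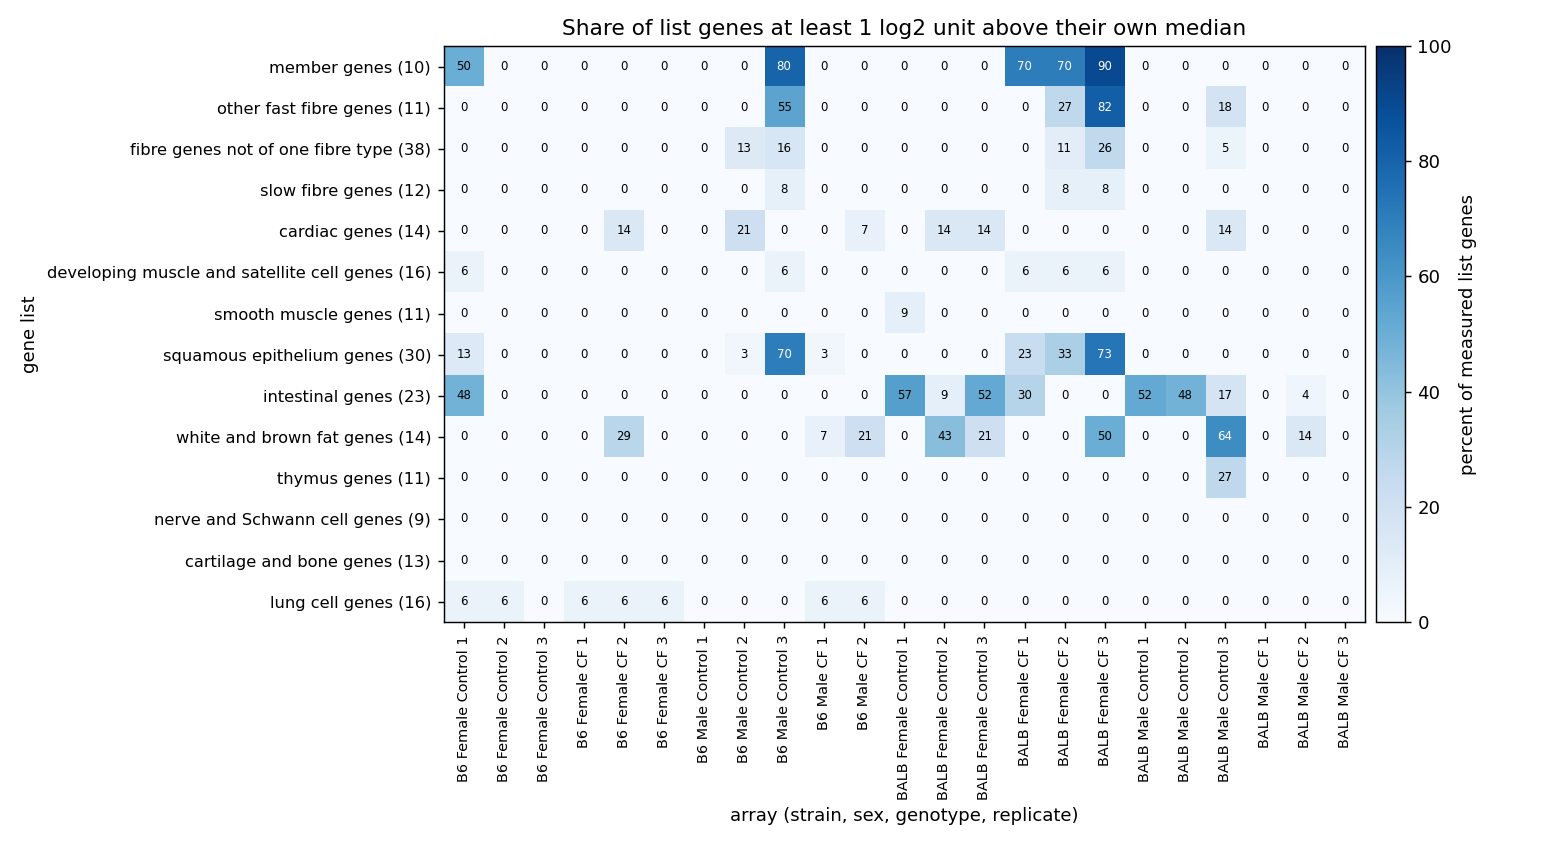
Percent of the measured genes of each list (rows, with the number measured) that lay at least 1 log2 unit above their own median on each of the 23 arrays (columns). Squamous genes are high on the same 5 arrays as the 10 muscle genes; intestinal and fat genes are high on partly other arrays.

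Genes of other tissues moved on some of the 5 arrays, and their part in the muscle signal was not tested. Squamous epithelium genes were high in 22 of 30 on BALB CF female 3, 21 on B6 control male 3, 10 and 7 on BALB CF females 2 and 1, and 4 on B6 control female 1, with a list mean of 0.63 to 2.49 on the 5 arrays and -0.21 to 0.06 on the 18, so the 2 ranges did not overlap. Intestinal genes were high in 11 of 23 on B6 control female 1 and in 7 on BALB CF female 1, but in 0 on the other 3 arrays, and in 11 to 13 on 4 BALB control arrays with no high muscle gene (list mean -0.18 to 1.28 on the 5 and -0.15 to 1.79 on the 18). Fat genes were high in 7 of 14 on BALB CF female 3 and in 0 on the other 4 arrays (list mean -0.39 to 1.54, against -0.60 to 1.69). They were also high in 9 on BALB control male 3 and in 6 on BALB control female 2, with no high muscle gene on either array. For arrays outside the 5 no share of all genes is given beside these counts. The brown fat gene Ucp1 read 10.48 on BALB CF female 3 and 3.84 to 4.77 on the other 4. Thymus, nerve and cartilage lists had 0 genes high on the 5 arrays, and the 16 lung cell genes had a list mean of -0.17 to 0.19 there and -0.14 to 0.21 on the others. In these bulk samples, more cells of a type and more RNA per cell cannot be told apart.

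The comparisons of the design were fitted with limma over all 45037 probe sets with Benjamini-Hochberg adjustment, and the counts of the 14 muscle probe sets are given beside those of all probe sets. Since the values of these arrays chose the genes, nothing is read from the counts. For CF against control in BALB females, 9 of the 14 passed 0.05, all higher in CF, against 1.19% of all probe sets (0.577% higher). The differences of the 14 ran from 0.15 to 5.05 with a median of 2.02, and the median of all probe sets was 0.01. The count was 0 without CF female 3, without control female 1 or without control female 3, and 1 with a trended and robust variance. In BALB males 0 of the 14 passed by limma (1.93% of all did), 0 also at an unadjusted p under 0.05, and the differences ran from -0.39 to 0.03. As all 3 BALB CF females carried the signal and no BALB control did, genotype and whatever put the muscle genes on those arrays cannot be told apart in BALB females.

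With both sexes averaged, 0 of the 14 passed by limma for CF against control in BALB (4.92% of all did) and 10 had an unadjusted p under 0.05, with differences from 0.03 to 2.46 and a smallest adjusted p of 0.0507. The count was 8 without B6 control male 3, 5 without BALB CF female 1, 3 without B6 control male 1, 2 without B6 control female 1, and 1 without B6 control male 2 or BALB CF female 2. In B6, where both high arrays were controls, 0 passed by limma (4.71% of all did), 0 also at an unadjusted p under 0.05, and the differences ran from -1.69 to 0.10. For the strain difference of the CF effect, BALB minus B6, 1 of the 14 passed (2.54% of all did): Tnnc2, at 4.04 (SE 1.07, adjusted p = 0.0467 by limma). The count was 8, 7, 6 and 5 without B6 control male 1, B6 control male 3, B6 control male 2 and BALB CF female 1, and 0 without any other single array. It was also 0 with a trended and robust variance. None of the 14 passed by limma for BALB against B6 controls (15.6% of all did; 2 of the 14 at an unadjusted p under 0.05) or for female against male controls (2.43%; 0 of the 14). The same held for the sex difference of the CF effect in B6 (1.75%; 0 of the 14) and in BALB (0.0178%; 12 of the 14), where the count was 7 without B6 control male 3. Within B6 none passed in females (0.815%; 0 of the 14) or in males (6.24%; 2 of the 14).

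Muscle genes outside the 10 and squamous genes were read in the same fit. Krt4 and the lists were chosen with the values on these arrays known, so nothing is read from the calls below either. For CF against control in BALB females 534 of all probe sets passed by limma. The number was 278, 641 and 53 without CF females 1, 2 and 3 in turn. It was 39, 1414 and 57 without control females 1, 2 and 3, on which no muscle gene was high. For CF against control in BALB females, where 0.577% of all probe sets were higher and 1.19% passed in either direction, 2 of 11 other fast fibre genes rose, Pygm, muscle glycogen phosphorylase (1.09, SE 0.23, adjusted p = 0.0307 by limma), and Eno3, muscle enolase (1.24, SE 0.30, adjusted p = 0.0453 by limma), with a list median of 1.09 against 0.00 over all genes. Of the 38 genes of no one fibre type 3 rose: Cacng1, a subunit of the muscle calcium channel (0.89, SE 0.15), Apobec2 (2.07, SE 0.50) and Tpm1, a tropomyosin also made by other cells (0.48, SE 0.10), with a list median of 0.27. Myl3 rose by 1.59 (SE 0.31, adjusted p = 0.0195 by limma) and Myh8 by 4.40 (SE 0.85, adjusted p = 0.0191 by limma), each the only call of its list. Nppa, atrial natriuretic peptide, fell by 3.37 (SE 0.76, adjusted p = 0.0348 by limma), the only call among 14 cardiac genes. Of 30 squamous genes 8 rose (list median 1.18), Krt4 by 6.92 (SE 1.37, adjusted p = 0.022 by limma). In BALB males and in either sex of B6, 0 genes of these 6 lists passed by limma. At an unadjusted p under 0.05 the most were 8 of the 38 genes of no one fibre type, 4 of 30 squamous genes and 3 of 12 slow fibre genes, all in B6 males. With the sexes averaged, Tpm1 was lower in CF in B6 by limma (-0.27, SE 0.08, adjusted p = 0.0467), and Cacng1, Tpm1, Myl3 and Myh8 were higher and Nppb lower in CF in BALB. Of 30 squamous genes 3 were also higher in CF in BALB, with Krt4 at 3.49 (SE 0.97, adjusted p = 0.0405 by limma). For BALB against B6 controls, where 15.6% of all probe sets passed, 5 of the 38 genes of no one fibre type passed, a share not above that. Of these 1 was higher (Tmod4) and 4 lower (Mb, Sln, Trim63 and Tpm1). Of 30 squamous genes 4 were lower and 0 higher, and of 14 cardiac genes 2 were lower and 1 higher. Of 12 slow fibre genes 1 was lower and 1 higher, of 16 developing muscle genes 1 was lower, and of 11 other fast fibre genes 0 passed.

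Below the high range the levels by strain are a description, since the arrays were set apart by these same values. On the 18 arrays with no high muscle gene Acta1 read 4.70 to 5.18 in B6 (median 4.86) and 5.16 to 6.17 in BALB (median 5.44), 9 arrays each, so that the ranges touched at their ends. Ckm read 5.97 to 6.69 and 6.26 to 7.20 on the same arrays, with much overlap, and Tnnc2 read 3.23 to 3.85 and 3.05 to 3.44. In a fit without the 5 arrays, added after the data were seen, Acta1 was the only one of the 14 to pass for BALB against B6 controls (14.5% of all probe sets did), at 0.69 (SE 0.12), and with all arrays the difference was -0.96 (SE 0.79). Leaving out arrays for high muscle genes removed 2 B6 controls and no BALB control, which by itself lowers the B6 mean, so nothing is read from this call. The 4 B6 control arrays kept read 4.70 to 5.18 and the 6 BALB control arrays 5.30 to 6.17. In the same fit none of the 14 passed for CF against control in B6 (4.21% of all did), in B6 females (1.53%), in B6 males (4.62%) or in BALB males (2.31%), where the differences of Acta1 were -0.04, 0.22, -0.29 and -0.39. None passed either for female against male controls (3.08%) or for the sex difference of the CF effect in B6 (1.74%).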

How the data were processed

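Each array was one sample of whole right lung RNA, labelled with biotin, and groups were taken from the sample titles. The authors deposited 1 table of log2 signals over 45101 probe sets and 23 arrays. That the scale is log2 was inferred from the values (1.79 to 13.82, array medians alike), and for the normalization and software, the method is not given in the sources used here. Symbols came from the platform annotation: 34945 probe sets had 1 symbol, 932 several and 9160 none, after 64 control probe sets were left out.

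Comparisons were fitted with limma 3.58.1 (R 4.3.3) on the deposited log2 values, 1 mean per group over all 23 arrays, with contrasts for genotype, strain and sex, moderated variances (15 residual and 5.81 prior degrees of freedom) and Benjamini-Hochberg adjustment over 45037 probe sets at a threshold of 0.05. The fit was tested on simulated data. Descriptions, permutation tests and sequences used Python 3.11.15 with pandas 2.3.3 and scipy 1.17.1. The 10 genes and the other lists were chosen with earlier results of these data known. By the rule for named genes, the text may name the 10 genes and Krt4, from each other list up to 4 genes of widest range and those past the threshold, and the 10 genes most correlated with the muscle score, with and without group means. Myh1, Myh3, Myod1, Tnni1, Tnnt1, Ttn, Neb, Sftpc, Scgb1a1 and Gm94 fall outside it and were chosen after their values were seen. The fits were repeated with quantile normalization, low values left out, array weights, a trended and robust variance, a block for the replicate number, and each array left out in turn; leaving out the 5 arrays with high muscle genes was chosen after seeing the data. Replicate numbers did not pair the arrays: deviations of arrays with the same number in other groups had a median correlation of 0 (77 pairs, -0.18 to 0.35), as did those with different numbers (154 pairs, -0.29 to 0.28).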

Additional observations from a re-analysis of the deposited data

Results flagged for a closer look

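The CF effect (CF minus control, both sexes averaged) passed the limma interaction term between the strains (BALB minus B6, log2) for 6 of the genes described, all higher. In the other direction 1 of 23 intestinal, 1 of 14 fat and 1 of 11 thymus genes passed, and 2.54% of all probe sets passed in either direction. Of the 6, 1 was among 10 muscle genes, 1 among 38 genes of no one fibre type and 1 among 12 slow fibre genes. The other 3 were among 30 squamous genes. The differences were 4.04 for Tnnc2 (SE 1.07, adjusted p = 0.0467), 5.90 for Krt4 (SE 1.41, adjusted p = 0.0281), 5.26 for Krt13 (SE 1.27, adjusted p = 0.0289), 4.70 for the squamous gene Krtdap (SE 1.20, adjusted p = 0.0398), 1.32 for Myl3 (SE 0.32, adjusted p = 0.0277) and 0.57 for Tpm1 (SE 0.11, adjusted p = 0.00643). The high arrays were CF females in BALB and controls in B6. The CF difference was 2.46 in BALB and -1.58 in B6 for Tnnc2, and 0.3 and -0.27 for Tpm1. Tpm1 was high on none of the 5 arrays, and its highest value, 9.84, was on B6 control male 2. Whether the 5 high arrays set these calls was not tested. The genes and lists were chosen with the values on these arrays known, and Tnnc2, Krt4, Krt13 and Krtdap were high on all 5 of them, so none of the 6 is independent evidence. No muscle probe set passed, Tnnc2 included, with a trended and robust variance, with a replicate block, or without any single array other than B6 control males 1, 2 and 3 and BALB CF female 1.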

How the results depend on the processing

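For 6 comparisons (CF in B6, in each sex of B6 and in BALB males, the sexes in controls, and the sex difference in B6) the number of the 14 muscle probe sets that passed was 0 in each of 29 alternatives. For CF in BALB (0 in the report) it was 1 with quantile normalization, 1 with low values left out and 6 with array weights, and 0 to 8 with single arrays left out. For the strain difference of the CF effect (1 in the report) it was 4 with array weights and 0 with a trended and robust variance, and 0 to 8 with single arrays left out. For CF in BALB females (9 in the report) it was 1 with a trended and robust variance and 0 to 9 with single arrays left out. For the sex difference in BALB (0 in the report) leaving out single arrays gave 0 to 7 (7 without B6 control male 3), and for BALB against B6 controls (0 in the report) it gave 0 to 1 (1 without B6 control male 1), with 1 also without the 5 high arrays. The fit holds 1 mean per group, and each probe set has a spread estimate shared by all groups. Leaving out a B6 array therefore changes no BALB mean, only the shared spread and the adjustment. What else lay behind these changes was not tested. The arrays with high muscle genes were the same 5 under both alternatives tried for the values by array, and with single arrays left out Krt4 and the muscle genes were both high on 4 to 5 arrays, 4 where the array left out was one of the 5.

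With a replicate block the count was 2 for CF in BALB and 0 for the strain difference of the CF effect; it changed no other count by over 1.5 times, and the numbers do not pair the arrays. Groups of 3 or 2 arrays, and within-group SDs of 1.61 for Acta1 against a median of 0.13 over all probe sets, limit what these fits can resolve.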
